A study of Mus musculus with 4 samples.

Results

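Newborn mouse enterocytes take up milk proteins at their apical surface and then sort them, either onward to lysosomes or back toward a membrane. The 10 genes described here, of 32227 in the feature lists, encode proteins of the Golgi, the recycling endosome and the apical delivery route of such cells: Ap1s3 (ENSMUSG00000054702), Clint1 (ENSMUSG00000006169), Arf4 (ENSMUSG00000021877), Yif1a (ENSMUSG00000024875), Rilp (ENSMUSG00000038195), Rab8a (ENSMUSG00000003037), Rab8b (ENSMUSG00000036943), Rab11a (ENSMUSG00000004771), Myo5b (ENSMUSG00000025885) and Stx3 (ENSMUSG00000041488). They were taken as a list by symbol, with Ap1s3 as the reference gene because its level was high in jejunal enterocytes. Since region values in enterocyte-like cells were in view when the list was drawn up, those values are given below as a description, without a test.

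The libraries came from wild-type (WT) mice at postnatal day 6, with jejunum and ileum taken from the same animal. Each region had 2 libraries, 1 from each of 2 mice, and the labels name no treatment. Epithelium was released with EDTA, dissociated with dispase and captured by PIP-Seq, which counts RNA molecules at their 3′ ends by unique molecular identifiers (UMIs). Mouse 1 is labelled male in batch 1 and mouse 2 female in batch 2, so animal, labelled sex and batch cannot be told apart.

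Both libraries of each mouse went against the sex label. Per 1000000 UMIs, mouse 1 had 575 (ileum) and 466 (jejunum) of Xist, transcribed from the inactive X chromosome, against 0.706 and 0.906 in mouse 2. Eif2s3y, on the Y chromosome, gave 0.0115 and 0.119 in mouse 1 and 88.1 and 67.0 in mouse 2. Both regions came from each mouse, and libraries are called by mouse number from here on. Of 36202 called cells, 30522 passed the limits on genes and mitochondrial share, 5723 to 8997 per library. Ileal libraries were deeper, the kept cells of which had a median of 12047.5 and 10916 UMIs, against 4690 and 5884 in jejunal ones, and the mitochondrial limit removed 0.212% and 0.794% of ileal against 5.28% and 19.5% of jejunal cells. Depth and mitochondrial share thus moved with region, and values at equal depth and under a stricter mitochondrial limit are given for part of the genes. In all, 2 cell barcodes were shared between libraries.

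Cells were grouped into 24 clusters and named from marker genes. Enterocyte-like clusters, which held 81.6% to 87.8% of kept cells in each library, numbered 6253, 6939, 7902 and 4994 cells in ileum 1, ileum 2, jejunum 1 and jejunum 2. Clusters 14 and 19, with stem cell and cell division markers, made a stem/progenitor-like class of 393, 412, 464 and 443 cells in the same order. Small enteroendocrine-like (46 to 74 cells per library), immune-like (26 to 50) and goblet-like (3 to 9) clusters were also named. Cluster 1, with 209 to 1042 cells per library, carried enterocyte markers. Its 10 leading genes were Gm49457, Hbb-bs, Olfr1261, Kcnc1, Kcnq1ot1, Airn, Ces1c, Gm20275, Mir99ahg and Hba-a2. Since 2 of these, Hbb-bs and Hba-a2, are haemoglobin genes on the marker list of another class, the cluster was left unnamed. None of the 10 genes was among the 2000 variable genes used for clustering.

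As background, membrane proteins leave the trans-Golgi network and endosomes in coated carriers whose cargo is picked by adaptor complexes such as AP-1, and small GTPases of the ARF family recruit these coats. RAB GTPases then give each compartment its identity: RAB8 and RAB11 act on the recycling and apical route, the motor myosin Vb moves RAB11 carriers under the brush border, and syntaxin 3 drives their fusion with the apical membrane. In humans, loss of myosin Vb or syntaxin 3 causes microvillus inclusion disease, in which enterocytes fail to build an apical surface.

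Promoter sequence was available for 8 of the 10 genes from RefSeq (GRCm38.p6, 250 bases before the annotated start), and 3 are shown because their genes stand for the different region patterns: Ap1s3 and Arf4 were higher in the jejunum in every enterocyte-like cluster compared, and Rab11a had its higher levels in the ileum. Clint1 and Myo5b had no entry. The Ap1s3 window lies at chr1:79671973-79672222 on the minus strand, Arf4 at chr14:26637884-26638133 on the plus strand and Rab11a at chr9:64737757-64738006 on the minus strand. Each is written 5′ to 3′ along its gene, and capitals mark matches to the 5 motifs searched on both strands. They were AGATAA for GATA factors, TGACGT for ATF and CREB factors, CCAAT for the CCAAT box and its factor NF-Y, CCACG for the second part of the ER stress element, and CAAAGT for HNF4 factors, and none of these letters overlapped another match.
Ap1s3: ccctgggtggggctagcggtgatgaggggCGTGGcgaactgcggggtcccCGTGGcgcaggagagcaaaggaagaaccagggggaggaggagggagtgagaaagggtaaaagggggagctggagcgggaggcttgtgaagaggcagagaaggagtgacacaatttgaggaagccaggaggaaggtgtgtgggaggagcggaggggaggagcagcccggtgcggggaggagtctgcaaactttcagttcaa
Arf4: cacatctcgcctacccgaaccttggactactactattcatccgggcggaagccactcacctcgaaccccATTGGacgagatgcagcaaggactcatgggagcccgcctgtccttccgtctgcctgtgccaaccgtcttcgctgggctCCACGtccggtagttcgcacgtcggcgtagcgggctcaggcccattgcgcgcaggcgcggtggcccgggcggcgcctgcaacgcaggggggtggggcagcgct
Rab11a: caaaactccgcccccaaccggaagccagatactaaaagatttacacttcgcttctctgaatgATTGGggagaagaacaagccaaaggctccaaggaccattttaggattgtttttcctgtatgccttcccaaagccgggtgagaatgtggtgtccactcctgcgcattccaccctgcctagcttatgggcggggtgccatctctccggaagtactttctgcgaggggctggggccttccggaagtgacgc

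In Ap1s3 both matches were CCACG on the antisense strand, at 221 to 217 and 200 to 196 bases before the start. Arf4 held 1 CCAAT match on the antisense strand and 1 CCACG match on the sense strand, at 181 to 177 and 103 to 99 bases before the start. Rab11a held 1 antisense CCAAT match, at 188 to 184 bases before the start. The whole ER stress element was not searched for, so a CCACG match stands for that part alone. Such letters are common: among all 32851 promoters of the same length, 33.9% held CCAAT, 28.3% CCACG, 12.6% CAAAGT, 9.99% AGATAA and 6.47% TGACGT. The GATA, ATF/CREB and HNF4 motifs had no match in any of the 8 windows, which says only that these letters are not there. Of the other genes, Yif1a had 5 matches, Rab8a 2 and Rab8b 1, whereas Rilp and Stx3 had none. The G and C share was 62.4% for Ap1s3, 66.8% for Arf4, 53.6% for Rab11a and 42% for Stx3, beside a median of 52.4% over all promoters.

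Ap1s3 encodes a small sigma subunit of AP-1, the clathrin adaptor of the trans-Golgi network and endosomes. In enterocyte-like cells its level, in UMIs per 1000000 of the class in each library (CPM), was 7.66 in ileum 1, 12.2 in ileum 2, 91.8 in jejunum 1 and 136 in jejunum 2, numbered by mouse. Both jejunal libraries lay far above both ileal ones, with means of 114 ± 31.2 and 9.95 ± 3.24 (SD, n = 2). Within each mouse the jejunal level was 12.0 and 11.1 times the ileal one. The levels rest on 602, 1034, 4836 and 5618 UMIs, and the log2 fold change of ileum over jejunum was -3.62 ± 0.35 (SE).

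At equal depth the difference was also large. With every cell thinned to 2000 UMIs, an Ap1s3 UMI was seen in 1.68% (104 of 6204) and 2.37% (158 of 6664) of ileal enterocyte-like cells and in 15.7% (1132 of 7212) and 21.2% (1019 of 4797) of jejunal ones. Exact 95% binomial intervals, which cover counting error only, were 1.37% to 2.03% and 2.02% to 2.77% for the ileal and 14.9% to 16.6% and 20.1% to 22.4% for the jejunal libraries. Before thinning, the shares were 8.59%, 12.8%, 37.2% and 54.4%, with the deeper ileal cells favoured. The mean jejunal share was 9.13 times the ileal one, and 8.88 to 9.63 times over the other thinning depths, seed and cell limits.

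Clint1, Arf4 and Yif1a shared the direction of Ap1s3 with much smaller ratios. Clint1 (epsinR), a clathrin and AP-1 binding protein of the trans-Golgi network, was at 258 and 261 CPM in ileal and 386 and 463 in jejunal libraries of mice 1 and 2. Arf4, a GTPase of the Golgi and recycling endosome, was at 287 and 332 in ileal and 581 and 749 in jejunal libraries. Both jejunal libraries exceeded both ileal ones for each of these genes, by 1.49 and 1.78 times within the mice for Clint1 and by 2.02 and 2.25 times for Arf4. Yif1a, a membrane protein of transport between endoplasmic reticulum (ER) and Golgi, was at 72.7 and 103 in ileal and 139 and 162 in jejunal libraries, or 1.92 and 1.57 times as high. With cells thinned to equal depth the Yif1a ratios were 1.92 and 1.418. At equal depth an Arf4 UMI was seen in 42.3% and 47.6% of ileal and in 63.8% and 70.9% of jejunal enterocyte-like cells, and a Clint1 UMI in 39.2% and 38.9% against 49.2% and 55.7%.

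Rilp, a RAB7 effector that couples late endosomes and lysosomes to dynein, was a rare transcript. It was at 1.95 and 1.86 CPM in ileal and 3.80 and 4.74 in jejunal libraries, from 153 to 200 UMIs per library, so the libraries of the regions did not overlap. Only 0.345% to 0.876% of enterocyte-like cells held a Rilp UMI at equal depth, which leaves its pattern per cell unmeasurable.

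Of the RAB8 paralogs Rab8a, a GTPase of apical delivery, was at 212 and 232 CPM in ileal and 217 and 224 in jejunal libraries, so that the libraries overlapped and the ratio within the mice was 1.03 and 0.968. Rab8b was at 49.8 and 49.6 in ileal and 81.9 and 70.7 in jejunal libraries, with both jejunal libraries above both ileal ones. Its ratio within the mice was 1.645 and 1.425, and 1.519 and 1.213 with cells thinned to equal depth. Rab8b held 19.0% and 17.6% of the UMIs of the pair in ileal libraries and 27.4% and 24.0% in jejunal ones. Reads that fit both paralogs may have been split between them by the authors' counting.

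Rab11a and Stx3 ran the other way. Rab11a, the GTPase of the recycling endosome, was at 930 and 1014 CPM in ileal and 748 and 668 in jejunal libraries, 0.805 and 0.658 times the ileal level within the mice. Stx3, the apical membrane SNARE, was at 439 and 458 in the ileum and at 350 in both jejunal libraries. With cells thinned to equal depth the ratios of jejunum to ileum within the mice were 0.834 and 0.634 for Rab11a and 0.807 and 0.727 for Stx3. For both genes the ileal libraries lay above the jejunal ones without overlap, with means of 972 ± 59.5 against 708 ± 57.1 (SD, n = 2) for Rab11a and 448 ± 13.1 against 349.9 ± 0.578 for Stx3. Myo5b, the motor of the RAB11 route, was at 227 and 175 in ileal and 230 and 199 in jejunal libraries and overlapped on this scale, with ratios of 1.02 and 1.14. Neither Rab11a nor Stx3 had the jejunal direction of Ap1s3.

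**Figure D1:**
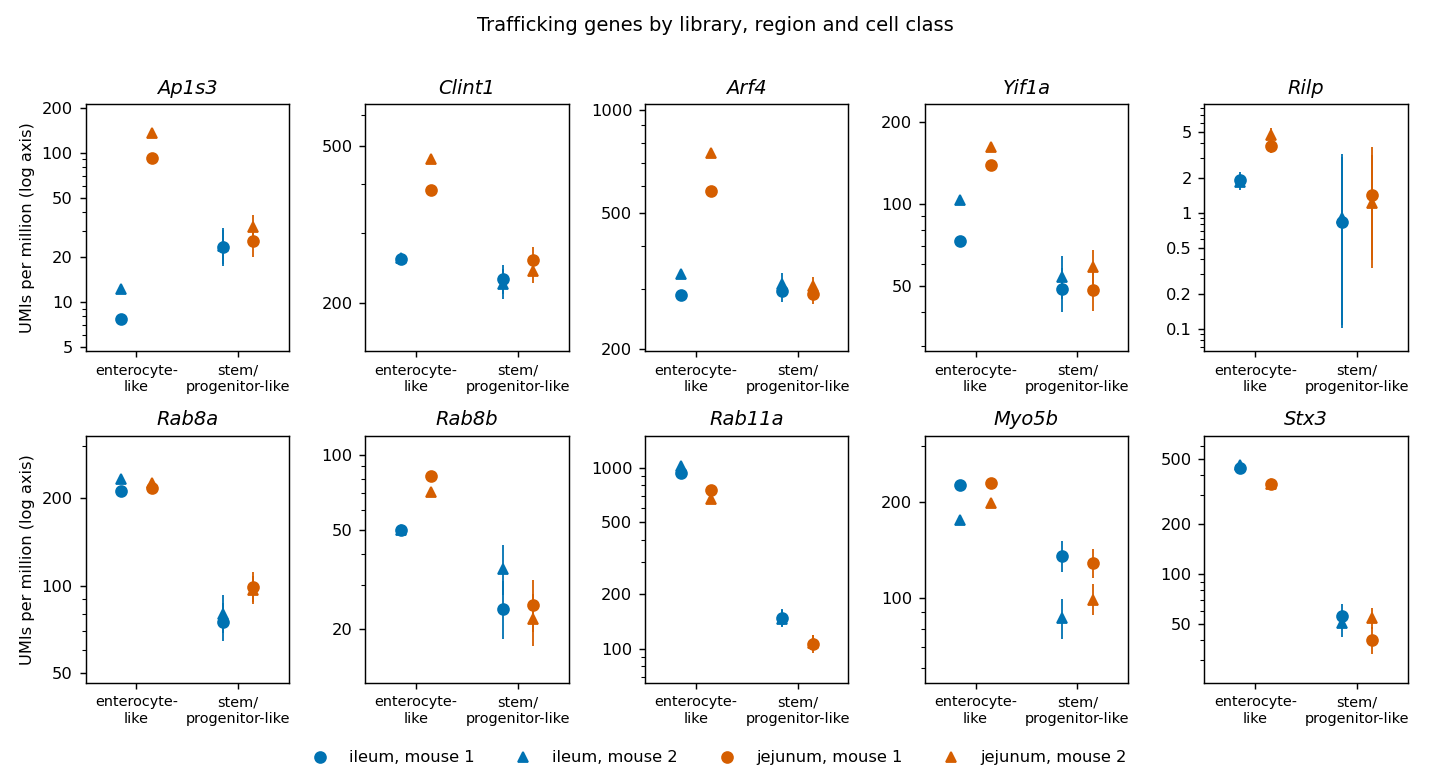
Level of each of the 10 genes in CPM (log axis) in enterocyte-like and stem/progenitor-like cells of each library, with circles for mouse 1, triangles for mouse 2 and exact 95% Poisson bars for counting error. In enterocyte-like cells Ap1s3 sits at 7.66 and 12.2 in ileal and 91.8 and 136 in jejunal libraries, whereas in stem/progenitor-like cells its 4 values lie between 23.2 and 31.8.

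In the fit across all genes of the enterocyte-like sums (edgeR, TMM scaling, which sets libraries on a common level by a trimmed mean of gene ratios), 7.32% of 19611 genes passed an adjusted p of 0.05, 3.10% with the jejunum and 4.22% with the ileum higher. The 10 genes are given without their p-values, since these values chose them. On the scaled levels of that fit 7 of the 10 genes had both jejunal libraries above both ileal ones, beside 30.8% of all genes, and 2 had the reverse, beside 30.7% (61.6% in either direction). Myo5b did not overlap on this scale, unlike on the unscaled one. Nothing is read from these counts. The log2 fold changes of ileum over jejunum were -1.28 ± 0.24 (SE) for Rilp, -1.22 ± 0.21 for Arf4, -0.88 ± 0.23 for Yif1a, -0.83 ± 0.17 for Clint1, -0.73 ± 0.14 for Rab8b, -0.21 ± 0.16 for Myo5b, -0.10 ± 0.15 for Rab8a, 0.25 ± 0.14 for Stx3 and 0.35 ± 0.15 for Rab11a. With only cells under a mitochondrial share of 10%, the values were -3.63 for Ap1s3, -1.32 for Arf4, -1.05 for Yif1a, -0.92 for Rab8b, -0.90 for Clint1, 0.20 for Stx3 and 0.25 for Rab11a.

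The stem/progenitor-like cells asked whether the region pattern was present in cells that the choice of genes had not used, although they came from the same libraries. Ap1s3 was at 23.2 and 23.8 CPM in ileal and 25.6 and 31.8 in jejunal libraries, from 53 to 103 UMIs per library. The jejunal libraries lay just above the ileal ones on this scale. After thinning to equal depth the ratio was 0.799 and 0.768 within the mice, so the direction turned with the scale. Arf4, which was 2.02 and 2.25 times as high in jejunal enterocyte-like cells, was at 296 and 310 in ileal and 290 and 306 in jejunal stem/progenitor-like cells, or 0.980 and 0.988 times the ileal level. Clint1 was at 229, 224, 257 and 242 and Yif1a at 48.5, 53.9, 48.0 and 58.6, in the order ileum 1, ileum 2, jejunum 1 and jejunum 2. Rab11a was at 148 and 146 in ileal and 107 and 108 in jejunal libraries, with ileal libraries above jejunal ones as in the enterocyte-like cells.

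None of the 9 genes tested in stem/progenitor-like cells passed the threshold in the quasi-likelihood fit of edgeR, with p-values adjusted (Benjamini-Hochberg) over 12242 genes, of which 1.50% were called, 0.841% with the jejunum and 0.662% with the ileum higher. On the scaled levels Ap1s3, Clint1 and Rab8a had both jejunal libraries above both ileal ones, beside 21.5% of all genes, and Rab11a the reverse, beside 21.6% (43.0% in either direction). Rilp, with 2 to 4 UMIs per library, did not pass the count filter. DESeq2 also called 0 of the 9, and 2 had an unadjusted p under 0.05, beside 12.8% of all genes. These were Rab11a, with a log2 fold change of ileum over jejunum of 0.42 ± 0.14 (SE) and an adjusted p of 0.215, and Rab8a, with -0.38 ± 0.15 and an adjusted p of 0.303. With the animal as a block, Rab11a passed with an adjusted p of 0.0121, and was the single call, beside 8.50% of all genes called in that fit, 4.15% with the ileum higher. Its level lay within the range of carried-over marker RNA given below. Ap1s3 had -0.34 ± 0.21 (adjusted p = 0.565), Clint1 -0.18 ± 0.13 (0.623), Yif1a -0.11 ± 0.17 (0.867) and Arf4 -0.02 ± 0.13 (0.975), all on the log2 scale. The median of the 9 was -0.08, beside 0.01 over all genes tested. Whether the region difference itself differed between the classes was not tested.

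**Figure D2:**
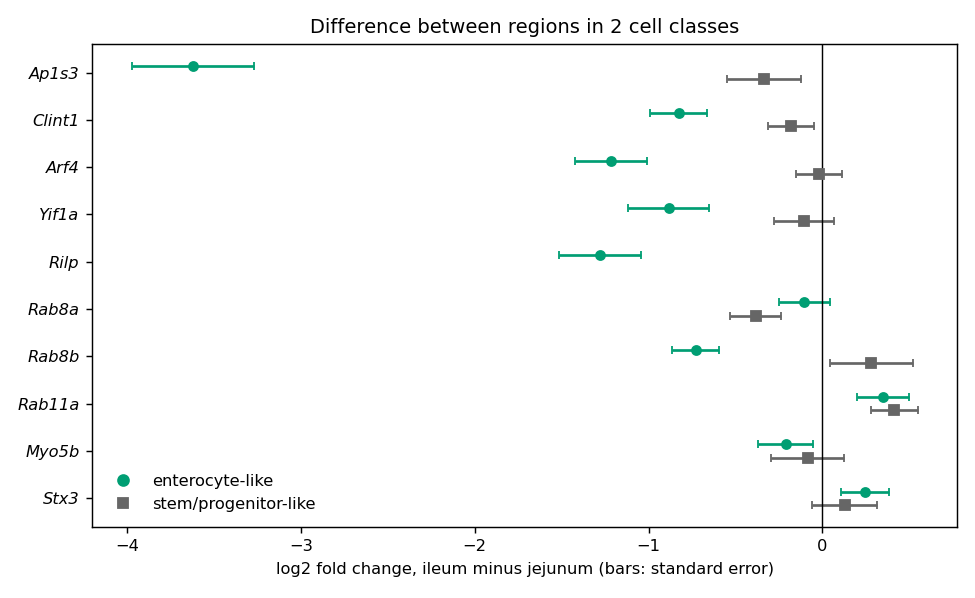
Log2 fold change of ileum over jejunum (horizontal axis, bars are SE) of each gene in enterocyte-like and stem/progenitor-like cells, from the fits over 4 libraries. For enterocyte-like and then stem/progenitor-like cells Ap1s3 lies at -3.62 and -0.34, Arf4 at -1.22 and -0.02, and Rab11a at 0.35 and 0.42.

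Set against the stem/progenitor-like level of the same library, the enterocyte-like level of Ap1s3 was lower in the ileum, at 0.330 and 0.514 times, and higher in the jejunum, at 3.58 and 4.28 times. For Arf4 the ratio was 0.971 and 1.07 in ileal and 2.00 and 2.45 in jejunal libraries, and for Clint1 1.13 and 1.17 against 1.50 and 1.92. The apical genes Rab11a (6.20 to 7.01 times) and Stx3 (6.48 to 9.09 times) were higher in enterocyte-like cells of all 4 libraries, as was Rab8a (2.18 to 2.90 times). These ratios are descriptions, since the classes come from the same cells.

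RNA outside cells can lend UMIs to every class. In stem/progenitor-like cells 9 enterocyte marker genes stood at 5.10% to 24.1% of their enterocyte-like level. Rab11a, at 14.3% to 16.1%, and Stx3, at 11% to 15.4%, lay within that range in every library, and the part of carried-over RNA in their levels was not tested. Ap1s3 stood at 303% and 195% in ileal and 27.9% and 23.4% in jejunal libraries, and Arf4 at 40.8% to 103%. By library the marker range was 5.74% to 20.1% in jejunum 1 and 5.10% to 24.1% in jejunum 2. The jejunal Ap1s3 value of mouse 1 was above the range of its library, and that of mouse 2 was within it.

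The order of Ap1s3 over classes and regions ran from unnamed cluster 1 of the jejunum (145 and 201 CPM) and jejunal enterocyte-like cells (91.8 and 136) through jejunal immune-like cells (81.0 and 61.4, from 21 and 9 UMIs) to a middle group. That group held jejunal enteroendocrine-like cells (26.0 and 28.8, from 6 and 7 UMIs), jejunal stem/progenitor-like cells (25.6 and 31.8) and ileal stem/progenitor-like cells (23.2 and 23.8), whose counting intervals overlapped. Ileal cluster 1 (11.02 and 20.9), ileal enteroendocrine-like cells (16.0 and 10.6, from 5 and 3 UMIs), ileal immune-like cells (6.17 and 23.0, from 3 and 6 UMIs) and ileal enterocyte-like cells (7.66 and 12.2) overlapped each other at the bottom. The bottom and middle groups were not cleanly apart. In ileum 2 cluster 1 (20.9) and immune-like cells (23.0) lay near the stem/progenitor-like value of 23.8. Small counts also leave the place of the enteroendocrine-like cells, and of the jejunal immune-like cells of both mice, unresolved. In immune-like cells Ap1s3 stood at 80.5%, 188%, 88.3% and 45.2% of its enterocyte-like level in ileum 1, ileum 2, jejunum 1 and jejunum 2. The enterocyte marker genes stood there at 32.5% to 90.2%, 33.1% to 65.3%, 29.6% to 46.7% and 19.0% to 46.6%, so that Ap1s3 lay above them in ileum 2 and jejunum 1 and within them in the other libraries. The Ap1s3 counts are small, and the part of carried-over RNA was not tested. Goblet-like cells were too few to give a level.

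Rab8b was higher in immune-like than in enterocyte-like cells of all 4 libraries, though by little in ileum 1 (63.7 against 49.8 CPM, from 31 UMIs). Its level there was 63.7 and 92.1 CPM in ileal and 219.9 and 375 in jejunal libraries, from 24 to 57 UMIs per library, or 128%, 186%, 269% and 531% of the enterocyte-like level. Arf4 and Clint1 in immune-like cells were at 308, 315, 467 and 485 and at 245, 250, 386 and 389, in the order ileum 1, ileum 2, jejunum 1 and jejunum 2. In unnamed cluster 1, at equal depth, Ap1s3, Arf4, Clint1, Yif1a, Rab8b and Myo5b had both jejunal libraries above both ileal ones. So did 19.4% of the 6065 genes seen in at least 5% of its cells. Rab11a, Stx3 and Rab8a had the reverse, beside 35.9%. Cluster 1 carried enterocyte markers and came from the same libraries, so nothing is read from these counts.

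The AP-1 sigma subunits are encoded by 3 genes, and UMIs counted at the 3′ end do not scale with transcript length, so shares within the family can be given. Ap1s3 made up 3.31% and 4.05% of the family's UMIs in ileal and 27.6% and 41.6% in jejunal enterocyte-like cells. Ap1s1 was at 223 and 290 CPM in ileal and 240 and 191 in jejunal libraries, with libraries that overlapped, and Ap1s2 did not exceed 0.674. In stem/progenitor-like cells the Ap1s3 share was 16.1% and 15.1% in ileal and 16.8% and 19.3% in jejunal libraries. Arf4 made up 66.0% and 60.9% of Arf4 plus Arf5 in ileal and 69.7% and 76.5% in jejunal enterocyte-like cells, while Arf5 was at 148 and 213 CPM in ileal and 253 and 230 in jejunal libraries. Rab11a held 86.4% to 89.6% of Rab11a plus Rab11b in all 4 libraries. Yif1a held 84.3% to 89.4% of Yif1a plus Yif1b.

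The pattern of each gene was also described by cluster among the enterocyte-like cells. Of the 15 such clusters with at least 50 thinned cells in every library, both jejunal libraries lay above both ileal ones in 15 for Ap1s3 and Arf4, 14 for Clint1, 13 for Yif1a, 11 for Rab8b, 6 for Rilp, 4 for Rab8a and 0 for Myo5b. The reverse was seen in 13 for Rab11a and for Stx3, and in 1 each for Rilp, Rab8a and Myo5b. Over all genes seen in at least 5% of a cluster's cells, 17.8% of the 88809 pairs of gene and cluster had the jejunum and 39.7% the ileum higher without overlap. Rilp was too rare for that limit, and its lowest cluster level was 0 in every library, so its cluster counts are not set against these shares. The clusters share the same libraries, and the genes were listed with enterocyte-like region values in view. Nothing is read from these enterocyte-like counts. In the stem/progenitor-like clusters 14 and 19, Ap1s3 and Arf4 overlapped between the regions in both, and Rab11a was higher in the ileum in both, beside 22.2% of such pairs in these clusters.

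The jejunal level of Ap1s3 was uneven over the clusters. At equal depth it ran from 15.2 to 125 CPM in mouse 1, with a median of 90.7 over 16 clusters, and from 30.7 to 202 in mouse 2, with a median of 122 over 15 clusters. Cluster 17, led by Celf2 and Rmrp, had the lowest value in both mice, with a median UMI count 0.39 times that of its libraries before thinning, and clusters 13 (mouse 1) and 8 (mouse 2) the highest. The next lowest was cluster 16, led by Krt19 and Ms4a18, at 37.4 and 39.1. In the ileum the range was 3.72 to 18.3 and 2.56 to 23.7. The class of cluster 17 depended on the clustering: at resolution 0.5, 255 of its 727 cells fell in a cluster led by Fsip1 and Celf2 that was named stem/progenitor-like, and 468 in an enterocyte-like one. Cluster 17 was also the lowest cluster of both jejunal libraries for Arf4, Clint1, Yif1a, Rab8a, Rab11a and Stx3.

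**Figure D3:**
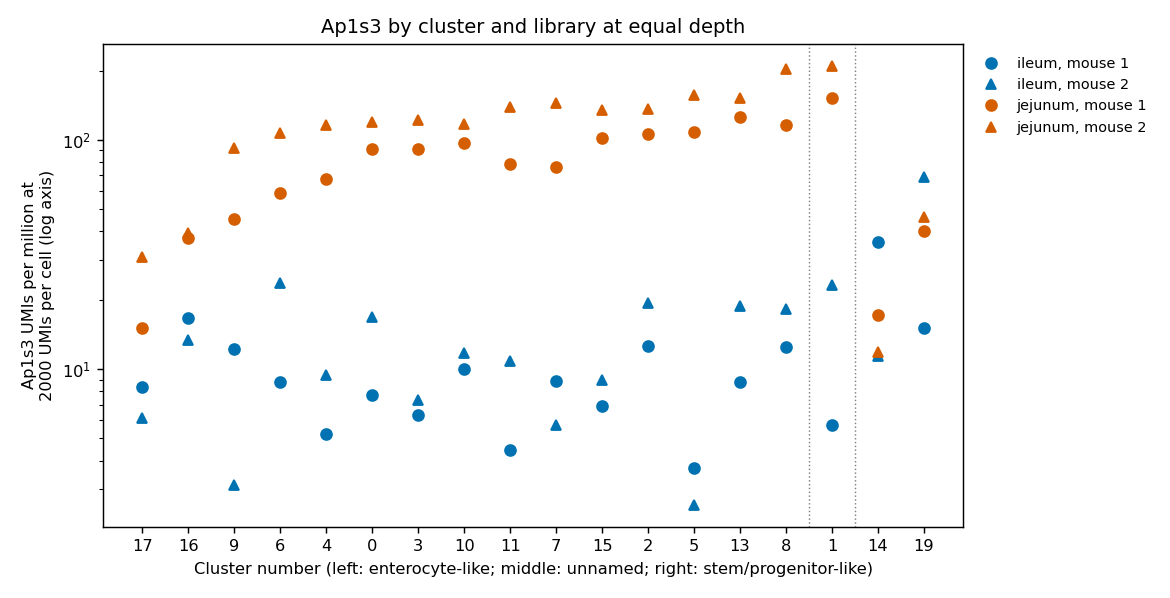
Ap1s3 in CPM after thinning each cell to 2000 UMIs, by cluster (enterocyte-like, unnamed and stem/progenitor-like) and library, with circles for mouse 1 and triangles for mouse 2. Both jejunal values lie above both ileal ones in all 15 enterocyte-like clusters and in unnamed cluster 1, and the regions overlap in both stem/progenitor-like clusters.

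Sharing a region pattern is not the same as sharing cells, so jejunal enterocyte-like cells with an Ap1s3 UMI at equal depth (1132 in mouse 1 and 1019 in mouse 2) were set beside those without. Arf4 was at 589 and 551 CPM with and without in mouse 1 and at 666 and 665 in mouse 2, log2 ratios of 0.10 and 0.00. For Clint1 the ratios were 0.07 and 0.01, for Yif1a 0.07 and -0.12, for Rab8b -0.01 and 0.11 and for Rab8a -0.02 and 0.16. The apical genes gave 0.09 and 0.08 for Rab11a, 0.05 and 0.09 for Stx3 and 0.01 and 0.08 for Myo5b. All 16 ratios lay between -0.12 and 0.16, and the middle 50% of all 5768 and 5628 genes compared lay between -0.10 and 0.09 in mouse 1 and between -0.10 and 0.11 in mouse 2. No gene among the 8 lay outside that middle in both mice. The genes compared were not matched for level, so a place inside that middle does not show that sharing is absent. A cell without an Ap1s3 UMI at this depth can still hold the transcript, which limits the comparison.

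**Figure D4:**
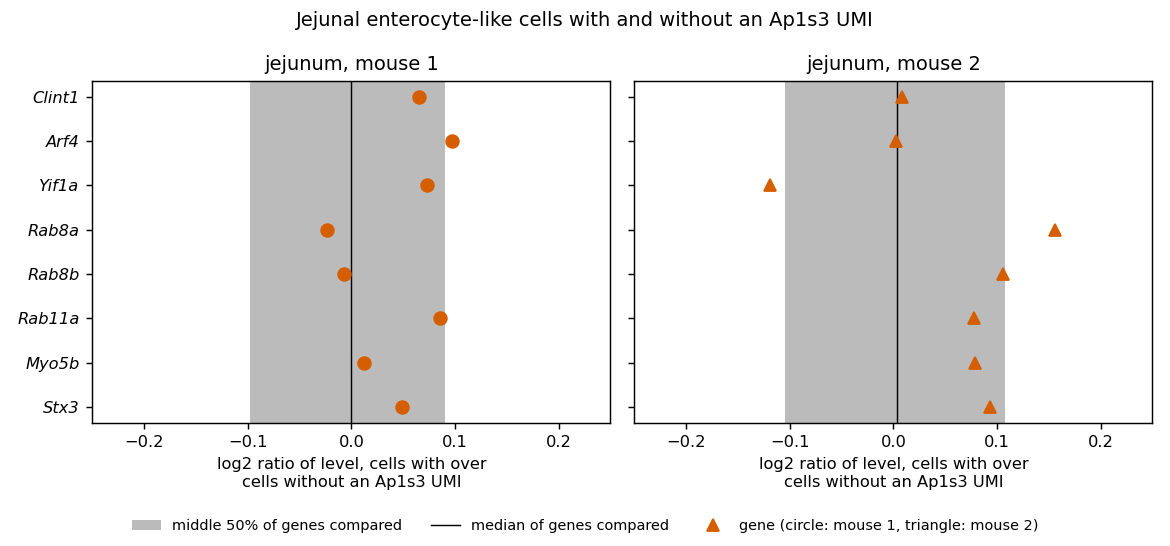
Log2 ratio of each gene's level in jejunal enterocyte-like cells with against without an Ap1s3 UMI, by mouse, after thinning to 2000 UMIs. All 16 points lie between -0.12 and 0.16, and the grey span marks the middle 50% of all genes compared.

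The mean Pearson correlation with Ap1s3 over the 2 jejunal libraries (7212 and 4797 cells sharing library and thinned depth) was 0.0341 for Rab11a, 0.0191 for Stx3, 0.0129 for Arf4 and -0.0061 for Yif1a, ranks 86, 469, 926 and 3742 of 5312 genes, whose median was 0.0007. Among the 10 genes most like Ap1s3 by this measure were Ctsl (0.0795), Apoc2 (0.0790), Fuca2 (0.0735), Apoa4 (0.0727), Ace (0.0709), B2m (0.0686), Apoc3 (0.0656), Lct (0.0620) and Neu1 (0.0619). Another thinning seed shared 7 and a depth of 4000 UMIs shared 6 of these 10. Between members, the 36 pairs without Rilp gave -0.0228 to 0.0925 in the jejunum of mouse 2, the widest range, with Arf4 and Rab11a the highest pair. Correlations this weak in sparse counts are no finding.

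The wider trafficking machinery was described by a list of 133 other genes in 6 groups. The list was drawn up with earlier results of these data known, so its counts and p-values, here and below, are a description. In enterocyte-like cells 6 of the 133 passed an adjusted p of 0.05 in edgeR, beside 7.32% of all genes. The ER to Golgi and Golgi transport group held 5 of them, all with the jejunum higher, among 33 genes with a median log2 fold change of ileum over jejunum of -0.41, beside -0.01 over all genes tested. In that group 29 of 33 genes were below 0, and 25 had both jejunal libraries above both ileal ones, beside 30.8% of all genes. The RAB7, late endosome and retromer group went the other way, with a median of 0.25, 16 of 18 genes above 0 and 12 with both ileal libraries higher, beside 30.7%, and 1 gene called. No gene was called among 23 clathrin adaptor and clathrin genes (median 0.08), 17 ARF GTPases and regulators (-0.02), 19 recycling endosome genes (0.05) or 23 apical fusion, SNARE and exocyst genes (0.02). Over the whole list 33 of 133 genes had an unadjusted p under 0.05, beside 28.8% of all genes. Without either ileal library, or with no count filter, 0 of the 133 passed, and without jejunum 2 there were 2. With the animal as a block 24 of the 133 passed, beside 17.5% of all genes, and 17 of them had the jejunum higher, beside 7.82%. Of these 17, 15 were ER to Golgi genes.

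Among the ER to Golgi genes Sec24d, a cargo-binding subunit of the COPII coat, was at 61.5 and 75.7 CPM in ileal and 223 and 302 in jejunal libraries, with a log2 fold change of ileum over jejunum of -2.05 ± 0.23 (SE, edgeR adjusted p = 0.0165). Kdelr2, which returns ER proteins from the Golgi, was at 110 and 130 in ileal and 203 and 257 in jejunal libraries (-1.05 ± 0.20, edgeR adjusted p = 0.0407). Sec22b, an ER to Golgi SNARE, was at 99.3 and 121 against 184 and 223 (-0.996 ± 0.20, edgeR adjusted p = 0.0437), and Bet1, another such SNARE, at 33.4 and 39.0 against 58.5 and 68.0 (-0.92 ± 0.18, edgeR adjusted p = 0.0436). All were higher in the jejunum of both mice. Kdelr3, the fifth called gene, was under the level set for naming and is named after its values were seen (-4.38 ± 0.60, edgeR adjusted p = 0.0219). Osbpl1a, an oxysterol-binding protein that acts with RAB7, was at 45.5 and 39.2 in ileal and 23.2 and 19.9 in jejunal libraries (0.86 ± 0.15, edgeR adjusted p = 0.0309).

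In stem/progenitor-like cells 0 of 127 list genes passed in edgeR, and the group medians ran from -0.14 for the ARF group to -0.01 for the clathrin group, beside 0.01 over all genes. Of the 127, 14 had an unadjusted p under 0.05, beside 12.8% of all genes, DESeq2 called 0, and the block fit called 11, beside 8.50%. The lowest adjusted p was 0.0581, for Sec24d, at -1.30 ± 0.28 on the log2 scale. The ER to Golgi median was -0.08 in these cells.

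**Figure D5:**
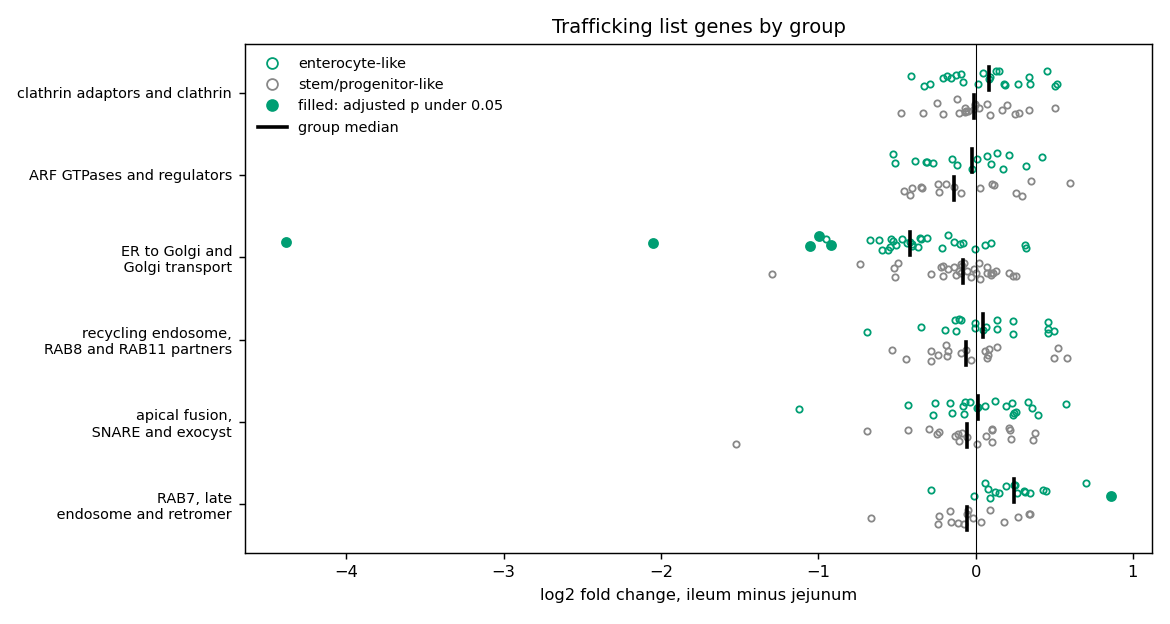
Log2 fold change of ileum over jejunum of the listed trafficking genes by group in enterocyte-like and stem/progenitor-like cells, with filled points for genes past an adjusted p of 0.05. The ER to Golgi group is shifted below 0 in enterocyte-like cells (median -0.41) and lies near 0 in stem/progenitor-like cells (median -0.08), with Sec24d at -2.05 and -1.30.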

How the data were processed

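The authors deposited UMI counts per gene and called cell for 4 libraries (total 57951874 to 131400239 UMIs), made from PIP-Seq 3′ libraries with PIPseeker at its sensitivity level 3, and the submitters' processing notes name GRCm39. All values were whole numbers. Kept cells had over 1000 and under 6000 genes and less than 20% mitochondrial UMIs, and genes had to be seen in at least 3 cells. Cells were integrated and clustered with Seurat 5.3.0 (2000 variable genes, 30 components, resolution 1), and clusters were named from marker lists, with naming thresholds set after the data were seen. Scrublet called 1 to 3 cells per library and so had not worked, and the highest 6% of its scores were left out as an alternative.

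Counts were summed per library and class and tested with edgeR 4.0.16 (quasi-likelihood, TMM factors, filterByExpr, region as the only term) in R 4.3.3, and DESeq2 1.42.0 was an alternative. The library was the unit. Log2 fold changes are ileum over jejunum. The SE given with them in edgeR is the absolute fold change over the square root of the quasi-likelihood F statistic. For the 10 genes in enterocyte-like cells it is a description only. The fits were tested on simulated data with 200 changed genes. Levels in UMIs per 1000000 (CPM) are unscaled sums unless the fit is named. Cells were thinned to 2000 UMIs for shares and for comparisons within a library, and shallower cells were left out. Log2 ratios of cells with and without an Ap1s3 UMI used 1 CPM as pseudocount. Same-numbered libraries are of the same animal, and their deviations from the group means correlated at 0.27 (enterocyte-like sums) and 0.25 (stem/progenitor-like sums), so the animal was also fitted as a block. Of the trafficking list, up to 5 called genes per direction were named, if the higher region averaged 20 CPM or more on the TMM scale with the same direction in both mice. The members, the trafficking list and the paralogs were chosen with earlier results of these data known. Alternatives were other count filters, each library left out, thinned sums, a mitochondrial limit of 10%, clustering without the listed genes and resolution 0.5. Summing all kept cells was added after seeing the data. Of the 10 genes ranked most like Ap1s3, 1 is not reported here.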

Additional observations from a re-analysis of the deposited data

How the results depend on the processing

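In enterocyte-like cells 1435 genes were called, 3120 with DESeq2 (1362 shared with edgeR), 3424 with the replicate block (all 1435 shared), 1526 with all kept cells and 0 with no count filter. Leaving out 1 library gave 3 to 1546 calls (3 without ileum 1, 27 without ileum 2, 507 without jejunum 2). For the trafficking list 6 genes, beside 7.32% of all genes, became 22 with DESeq2, where 3120 genes were called in all. The list had 24 with the replicate block, beside 17.5% of all genes, and 0 with no count filter, where no gene was called. Nothing is read from these counts. In stem/progenitor-like cells 184 calls became 1040 with the block and 82 to 259 with a library left out (82 without jejunum 2). List calls there, 0 in the main test, were 11 with the block, beside 8.50% of all genes. They were 1 each with no count filter, thinned sums, clusters formed without the listed genes and resolution 0.5. Those settings called 209, 210, 196 and 276 genes in all, in that order. Among the 10 genes, Rab11a was the 1 call with the block, beside 8.50% of all genes. It was also the 1 call at resolution 0.5 (log2 fold change 0.73, adjusted p = 0.0309 in edgeR), beside 276 genes called in all. At that resolution the class also took in a cluster of 454 cells led by Fsip1 and Celf2, 255 of them from cluster 17. Cluster 17 was enterocyte-like in the main clustering, so the cells compared were not the same.

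Fold changes near 0 in stem/progenitor-like cells reversed. Arf4 ran from -0.080 to 0.028 with a library left out, and was at 0.018 with thinned sums, 0.0019 under a mitochondrial share of 10% and 0.019 without the highest doublet scores. With a library left out, Myo5b ran from -0.42 to 0.18 (0.18 without ileum 2, 0.11 without jejunum 1), Yif1a from -0.24 to 0.036, Stx3 from -0.076 (without jejunum 1) to 0.36 and Rab8b from -0.029 (without ileum 2) to 0.54, with Rab8b at -0.21 at resolution 0.5. The cause was not tested. In enterocyte-like cells Ap1s3 ran from -4.06 to -3.26 and Arf4 from -1.40 to -0.97 over all alternatives. The share of cells with an Ap1s3 UMI, 2.02% in the ileum and 18.5% in the jejunum at 2000 UMIs, was 1.13% and 10.0% at 1000 and 3.97% and 36.0% at 4000 UMIs. Ratios with against without an Ap1s3 UMI spread most at 1000 UMIs, from -0.29 to 0.36. Depth limits Rilp and the small classes.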
